A study of Mus musculus with 4 samples.

Results

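Cluster 7 is a group of 152 peripheral blood T cells that the study's own clustering grouped together and annotated as CD4+ T cells. Its members were taken as all cells carrying both that annotation and that cluster number, 152 of 1517 CD4+ T cells and of 5794 cells in the series. A further 2 cells of cluster 7, annotated as 1 CD8+ T cell and 1 NK cell, were not members. The other CD4+ T cells lay in cluster 3 (784 cells), cluster 5 (444 cells) and cluster 8 (137 cells), and these 1365 cells are called the other CD4+ T cells here.

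The blood came from 4 female wild-type C57BL/6 mice aged 3.2 ± 0.3 months, all of them anaesthetised. The 2 treated mice (treated 1 is Maus3_2, treated 2 is Maus6) were exposed for 10 min to non-thermal plasma (NTP), a partially ionised gas, on the skin of an ear. The 2 untreated mice (untreated 1 is Maus2_2, untreated 2 is Maus4_2) received anaesthesia alone. Blood was drawn 120 min after irradiation in the treated mice, and 120 min after anaesthesia began in the untreated mice. The groups were thus not matched in time under anaesthesia. Mononuclear cells were isolated on a density gradient. For each mouse 1 library was made with a droplet method that captures RNA near its 3' end and counts molecules by unique molecular identifiers (UMIs). Cluster 7 held 32 and 53 cells of the treated mice, against 18 and 49 cells of the untreated mice. Its cells had a median of 4316.5 UMIs and 1528.5 genes, against 4440.0 UMIs and 1597.0 genes in the other CD4+ T cells. The median mitochondrial share was 5.05% in cluster 7 and 4.73% in the other CD4+ T cells. Summed over cells, cluster 7 gave 184893 and 246911 UMIs in the treated mice, against 85805 and 182952 in the untreated mice. No barcode of a cluster 7 cell occurred in a second library, and 4 barcodes of the whole series did.

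Mature T cells carry a T cell receptor with the CD3 chains and 1 of the coreceptors CD4 or CD8. A CD4+ T cell in blood is usually naive, with the factors Lef1 and Tcf7 and the homing receptor Ccr7, or it has met antigen and become a memory or effector cell with Cd44 and S100 genes. Regulatory T cells are CD4+ cells that restrain immune responses and are defined by the factor Foxp3. Cluster 7 was therefore described for genes of each of these states, beside clusters 3, 5 and 8 and the 600 annotated CD8+ T cells. The clusters were built from the expression of these same cells, so differences between clusters are given as descriptions, with no test. CPM, the UMIs of a gene scaled to a library of fixed size, were computed from UMI counts summed over the cells of a mouse, and means are over the 4 mice.

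The gene that set cluster 7 apart was Gm11290, a long intergenic noncoding RNA whose function is not covered by the annotation used. It was measured at 2028 and 2390 CPM in cluster 7 of the treated mice, and at 1690 and 2001 CPM in cluster 7 of the untreated mice. In the other CD4+ T cells it was at 69.6 and 62.1 CPM in the treated mice, and at 76.1 and 78.2 CPM in the untreated mice. The lowest cluster 7 value thus lay far above the highest value elsewhere, and the means were 2027 ± 286 CPM and 71.5 ± 7.27 CPM (SD, n = 4 mice each). The level was 28.3-fold higher in cluster 7, and on the log2 scale the difference was 4.83 ± 0.34. Ranked by CPM, Gm11290 was gene 90 of 15093 in cluster 7 and gene 1951 in the other CD4+ T cells, and it made up 0.211% of the UMIs of cluster 7.

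The same gene marked every single member. Each of the 152 cells held at least 2 UMIs of Gm11290, with a median of 8.5 and a maximum of 41, and 126 cells held 5 or more. By mouse, the lowest, median and highest UMIs per cell were 4, 10.5 and 32 in treated 1, and 4, 9 and 41 in treated 2. They were 2, 7 and 25 in untreated 1, and 2, 7 and 16 in untreated 2. These counts were not scaled for depth. Scaled by the UMIs of each cell, the median in treated 1 lay below that in untreated 2, so the groups overlapped. Of the other CD4+ T cells, 14.3% held a UMI of Gm11290 and 20 of 1365 cells (1.47%, Wilson interval 0.950 to 2.25%) held 5 or more. A low level was found in each of the other populations compared, with a UMI in 11.4% of cluster 3, 17.6% of cluster 5, 20.4% of cluster 8, 14.2% of CD8+ T cells and 11.2% of B cells. With each cell thinned to 2000 UMIs, Gm11290 was seen in 96.7% of the 151 cluster 7 cells that were deep enough, and in 8.67% of the other CD4+ T cells.

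Cells with much Gm11290 were not all in cluster 7. In all, 159 T cells held at least 5 of its UMIs, and 126 of them (79.2%) were members of cluster 7. Of the other annotated types, 13 CD8+ T cells, 16 of 3130 B cells and 3 NK cells reached 5 UMIs. Both cells of cluster 7 that were annotated otherwise are in these counts, the CD8+ T cell with 5 UMIs and the NK cell with 19. Only 2 of the other CD4+ T cells reached the median of cluster 7. The 26 members with fewer than 5 UMIs of the gene were shallower cells, with a median of 3215.5 UMIs in total.

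**Figure D1:**
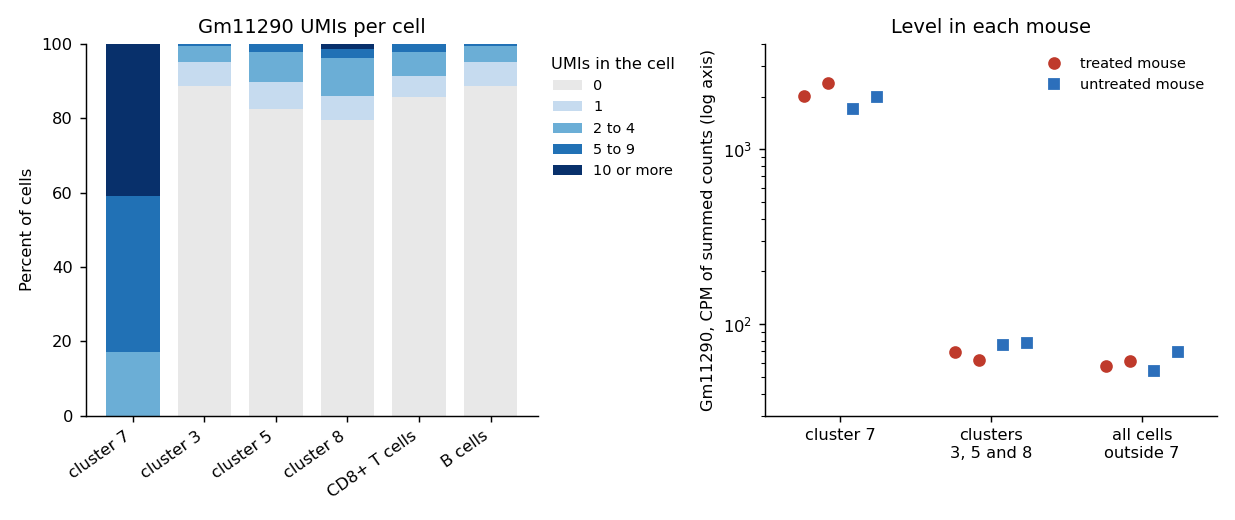
Left, percent of cells (vertical axis) with 0, 1, 2 to 4, 5 to 9 and 10 or more UMIs of Gm11290 in cluster 7, cluster 3, cluster 5, cluster 8, CD8+ T cells and B cells. Right, CPM of Gm11290 on a log axis in each treated (circle) and untreated (square) mouse, for cluster 7, clusters 3, 5 and 8 together, and all cells outside cluster 7. All 152 cells of cluster 7 lie in the classes of 2 or more UMIs, and its 4 mice lie between 1690 and 2390 CPM.

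Gm11290 (ENSMUSG00000085827.8) is annotated in GENCODE vM21 on the plus strand of chromosome 13 at chr13:22014468-22020738 (GRCm38, the mm10 build), a span of 6271 bases that no other annotated gene overlaps. It lies between Prss16, a thymic serine protease gene, and a cluster of replication-dependent histone genes. Of 23 genes annotated within 100000 bases, 5 were in the count table, and the highest of them in cluster 7 was Hist1h4i at 8.56 CPM, against 5.76 CPM in the other CD4+ T cells. Prss16 and Zfp184 had 0 UMIs in cluster 7. The high counts of Gm11290 were thus not shared by its measured neighbours. Histone genes such as Hist1h4i are among them, and RNAs of replication-dependent histone genes mostly lack the poly(A) tail that the method captures. Their low counts therefore do not show how far these genes were transcribed. The method counts RNA near its 3' end, and 4 transcripts of the gene are annotated, with 3, 3, 3 and 2 exons for 201 to 204. Which of them was counted was not given by a table of counts per gene. Their last 30 bases are shown because a 3' method reads next to such ends, with the polyadenylation signal AATAAA in capitals where it occurs on the transcript strand.
Gm11290-201: agcaaAATAAAagatagaaaaccggcttgg
Gm11290-202: cagctacagaaacaaagaacaaagcaaaat
Gm11290-203: gtccttcctcttctggaatcaaggaggaaa
Gm11290-204: ggatgagccAATAAAatattgatcaatttt
Transcripts 201 and 204 hold the motif in this window and 202 and 203 do not, and 23.3% of the 141722 annotated transcripts of at least 30 bases hold it there. Transcript 201 ends at base 22015370 and transcript 204 at base 22020738 of the chromosome. The motif search looked at these letters on 1 strand only and is a description of the annotated ends.

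The label was then compared with its markers. Cd3d, a chain of the CD3 complex, was at 682 ± 110 CPM in cluster 7 and at 620 ± 26.3 CPM in the other CD4+ T cells, and it was seen in 92.8% of members and in 0.703% of B cells. Trac, the constant region of the T cell receptor alpha chain, was at 429 ± 39.6 CPM in cluster 7 and at 453 ± 33.1 CPM in the other CD4+ T cells. The members were thus T cells by both genes. Cd4 itself was at 151 and 48.6 CPM in cluster 7 of the treated mice, and at 128 and 126 CPM in cluster 7 of the untreated mice. In the other CD4+ T cells it stayed between 140 and 148 CPM, and cluster 7 was lowest in treated 2. A Cd4 UMI was found in 34.2% of members (52 of 152, Wilson interval 27.1 to 42.1%), against 45.1% of the other CD4+ T cells. In CD8+ T cells the share was 0.667%, and in B cells 0.160%.

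For part of the cluster the data went against the label. Cd8b1, the beta chain of the CD8 coreceptor, was at 200 and 320 CPM in cluster 7 of the treated mice, and at 46.6 and 251 CPM in cluster 7 of the untreated mice. It stayed between 10.97 and 15.1 CPM in the other CD4+ T cells and averaged 651 ± 25.8 CPM in CD8+ T cells. Cd8a, the alpha chain, averaged 46.7 ± 25.8 CPM in cluster 7, 0.914 ± 1.83 CPM in the other CD4+ T cells and 174 ± 8.16 CPM in CD8+ T cells. Cluster 7 thus held 0.314 of the Cd8b1 level and 0.268 of the Cd8a level of CD8+ T cells. A Cd8a or Cd8b1 UMI was found in 47 of the 152 members (30.9%, Wilson interval 24.1 to 38.7%), against 74 of 1365 of the other CD4+ T cells (5.42%). The share was 96.0% among CD8+ T cells and 0.415% among B cells. After thinning to 2000 UMIs per cell the shares were 21.9% in cluster 7, 2.001% in the other CD4+ T cells and 76.6% in CD8+ T cells. B cells had a median of 3364.0 UMIs, so these shares in B cells were measured at a lower depth.

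The coreceptor UMIs mostly lay in different cells. Of the 152 members, 48 held Cd4 UMIs only, 43 held Cd8a or Cd8b1 UMIs only, 4 held both and 57 held neither. In cluster 3, the corresponding counts were 310, 21, 19 and 434 of 784 cells. In cluster 7 the classes differed in depth. The median was 5466 UMIs in the 47 members with a CD8 UMI, 4325.5 in those with Cd4 UMIs only and 3696 in those with neither. Of the CD8+ T cells, 572 of 600 held CD8 UMIs only and 0 held Cd4 alone. By mouse, CD8 UMIs were found in 9 of 32 and 23 of 53 members of the treated mice, and in 2 of 18 and 13 of 49 members of the untreated mice. Among all T cells outside cluster 7 a CD8 UMI was found in 33.0%, and by mouse in 28.2% and 39.1% in the treated mice, and in 29.97% and 33.4% in the untreated mice. The shares in cluster 7 were 28.1% and 43.4% in the treated mice, against 11.1% and 26.5% in the untreated mice, and both treated mice lay above both untreated mice. Depth differed in the same direction, with medians of 6048 and 4647 UMIs per member in the treated mice, against 4296 and 3677 in the untreated mice. The shares by mouse were not thinned to an equal depth, so the part played by depth was not tested. In 18 cells of untreated 1, 2 cells with a CD8 UMI allow a share of 3.102 to 32.8% (Wilson interval, counting error only).

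Several of the 15 genes with the largest folds are known from cytotoxic lymphocytes, and others known from such cells were not higher. Ccl5, a chemokine gene of effector T cells, averaged 5.07 ± 7.68 CPM in cluster 7, 12.99 ± 13.35 CPM in the other CD4+ T cells and 75.01 CPM in CD8+ T cells. Fasl, the death ligand gene, had 1 UMI and the NK receptor gene Klrk1 had 0 UMIs in cluster 7. Both were also low in CD8+ T cells, at 0.568 CPM for Fasl and 3.05 CPM for Klrk1, so neither tells cluster 7 apart from them. Nkg7, which encodes a cytotoxic granule protein, averaged 61.2 ± 31.1 CPM in cluster 7, 3.5 ± 1.69 CPM in the other CD4+ T cells and 263 ± 22.4 CPM in CD8+ T cells. Klrd1, which encodes the NK receptor chain CD94, averaged 123 ± 32.1 CPM in cluster 7, 20.5 ± 5.05 CPM in the other CD4+ T cells and 256 ± 39.1 CPM in CD8+ T cells. Ly6c2, a surface antigen gene of memory-type CD8+ cells and monocytes, averaged 57.0 ± 29.8 CPM in cluster 7 and 5.11 ± 2.13 CPM in the other CD4+ T cells. The 15 largest folds were taken among genes higher in cluster 7 in every mouse, so that direction holds for Nkg7, Klrd1 and Ly6c2 by selection. Each of these genes was lower in cluster 7 than in CD8+ T cells on average. Ctsw, which encodes cathepsin W of cytotoxic lymphocytes, averaged 56.5 ± 26.8 CPM in cluster 7 and 15.8 ± 0.693 CPM in the other CD4+ T cells. Plac8 averaged 47.5 ± 35.7 CPM in cluster 7 and 3.23 ± 2.39 CPM in the other CD4+ T cells. Ctsw and Plac8, and Cd8a and Cd8b1 above, are also among the 15 largest folds, so their direction holds by selection as well. Nkg7, Ly6c2, Plac8 and Cd8a reached the minimum mean of 10 CPM only through their level in cluster 7.

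Within cluster 7 Nkg7, Klrd1 and Fam241a lay mostly in the cells with a CD8 UMI. The 47 members with a CD8 UMI gave 183 CPM of Nkg7, against 4.45 CPM in the 105 members without one. Klrd1 was at 275 CPM in members with a CD8 UMI, against 35.6 CPM in members without one. Fam241a was at 410 CPM in members with a CD8 UMI and at 73.5 CPM in members without one, beside 519 ± 13.5 CPM in CD8+ T cells and 67.0 ± 10.9 CPM in the other CD4+ T cells. The reverse held for Cd40lg, the CD40 ligand gene of helper T cells, at 15.9 CPM in members with a CD8 UMI and 62.3 CPM in members without one. Gm11290 itself was alike in both classes, at 2216 CPM in members with a CD8 UMI and 2046 CPM in members without one. These classes were chosen by UMIs of single cells, pooled over the mice, so the values are descriptions. Members with a CD8 UMI had a median of 5466 UMIs, against 3948 in members without one. A CD8 UMI may thus have been missed in some of the shallower cells. Cluster 7 thus held cells with Cd4 UMIs and cells with CD8 UMIs, and Gm11290 was high in both. The list of CD8 markers held 2 genes, so no cell type name is given to the cells with CD8 UMIs.

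**Figure D2:**
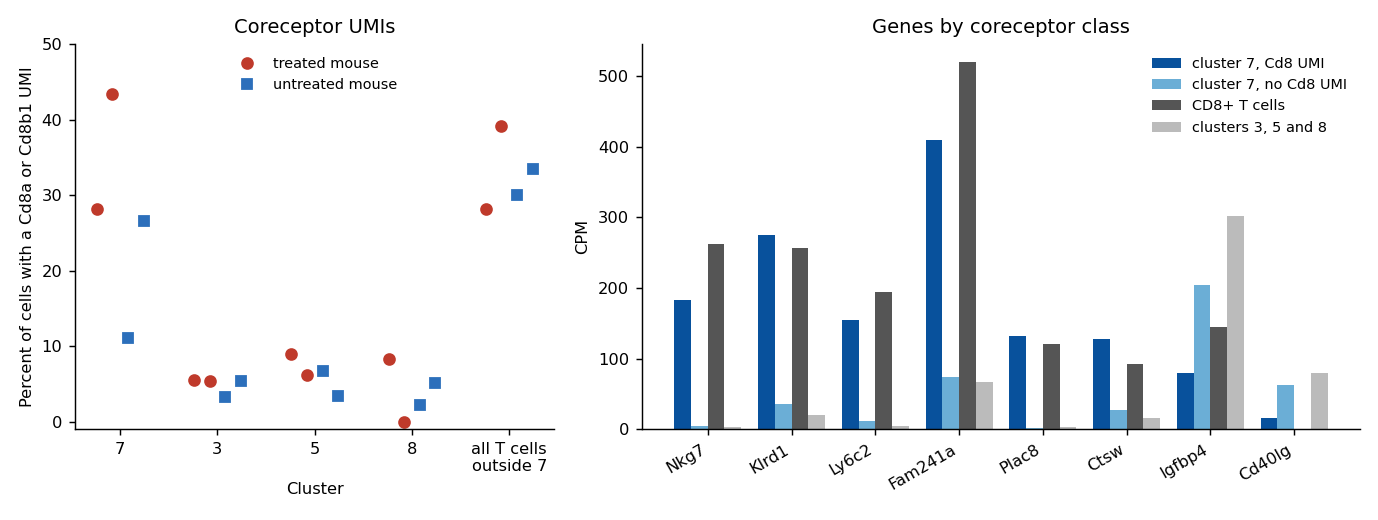
Left, percent of cells with a Cd8a or Cd8b1 UMI in each treated (circle) and untreated (square) mouse, for cluster 7, clusters 3, 5 and 8 and all T cells outside cluster 7. Right, CPM of 8 genes in the 47 members with a CD8 UMI, the 105 members without one, CD8+ T cells and the other CD4+ T cells, where bars are pooled values for the members and means of 4 mice for the others. Nkg7, Klrd1, Ly6c2, Fam241a, Plac8 and Ctsw are high where CD8 UMIs are present.

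Regulatory genes were at the level of clusters 3 and 5 and far below cluster 8. Foxp3 had 0 UMIs in its 152 cells, which allows up to 1.97% of cells with a UMI, whereas cluster 8 averaged 142 CPM and showed it in 35.04% of cells. Against a floor of 3 counts over the cluster (4.28 CPM), Foxp3 was at least 33.2-fold lower in cluster 7 than in cluster 8. Ikzf2, which encodes the regulatory T cell factor Helios, averaged 10.0 ± 3.13 CPM in cluster 7 and 622 CPM in cluster 8. Ctla4, an inhibitory receptor, averaged 38.3 ± 18.7 CPM in cluster 7 and 801 CPM in cluster 8. Il2ra, the high-affinity IL-2 receptor chain, had 1 UMI in cluster 7. All 20 regulatory T cell genes listed were in the table, and 7 reached a mean of 10 CPM over the 8 sums of cluster 7 and the other CD4+ T cells. Members such as Ikzf2 reached that level through cluster 8, averaging 10.0 CPM in cluster 7, 3.49 CPM in cluster 3 and 11.8 CPM in cluster 5, so the summed levels are given by cluster. The list summed to 222 and 251 CPM in cluster 7 of the treated mice, and to 117 and 148 CPM in cluster 7 of the untreated mice. Its mean of 184 ± 62.7 CPM was near the 227 ± 30.4 CPM of cluster 3 and the 232 ± 27.1 CPM of cluster 5, whereas cluster 8 had 2582 ± 403 CPM (SD, n = 4 mice).

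Memory genes gave a similar picture. S100a4, a calcium-binding protein gene of antigen-experienced T cells, had 0 UMIs in cluster 7, at least 49.0-fold lower than the 210 CPM of cluster 8. S100a6 had 1 UMI in cluster 7 and averaged 233 CPM in cluster 8. Cd44, the adhesion receptor used to define memory T cells, averaged 17.05 ± 10.1 CPM in cluster 7, 30.3 ± 7.62 CPM in the other CD4+ T cells and 74.4 CPM in cluster 8. Of 38 memory and effector genes listed, 26 reached a mean of 10 CPM, S100a4 and S100a6 among them through cluster 8 (S100a4 averaged 0.695 CPM in cluster 3 and 1.28 CPM in cluster 5). The list summed to between 2074 and 2369 CPM in the 4 mice in cluster 7, with a mean of 2248 ± 124 CPM. Cluster 3 had 2240 ± 102 CPM, cluster 5 had 2297 ± 110 CPM and cluster 8 had 5828 ± 1425 CPM. As with the regulatory list, cluster 7 stood beside clusters 3 and 5, and cluster 8 stood far above all of them.

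The naive profile was present at the level of the other CD4+ T cells. Lef1 was at 1482 and 1276 CPM in cluster 7 of the treated mice, and at 1503 and 1459 CPM in cluster 7 of the untreated mice. In the other CD4+ T cells it was at 1391 and 1347 CPM in the treated mice, and at 1520 and 1432 CPM in the untreated mice, so the ranges overlapped. Tcf7, which acts with Lef1, averaged 657 ± 39.2 CPM in cluster 7 and 659 ± 47.8 CPM in the other CD4+ T cells. Ccr7, the chemokine receptor for lymph node entry, averaged 347 ± 66.5 CPM in cluster 7 and 307 ± 34.7 CPM in the other CD4+ T cells. All 22 naive T cell genes listed reached 10 CPM, with a median log2 ratio of -0.04, and 5 were lower and 0 higher in every mouse. Over all 7265 genes at that level, 10.8% were lower and 4.75% higher in every mouse, with a median of -0.06. The list summed to 10961 ± 608 CPM in cluster 7, against 10348 ± 274 CPM in cluster 3, 14082 ± 357 CPM in cluster 5 and 9641 ± 791 CPM in cluster 8, so cluster 5 was the highest. The 5 lower genes were Igfbp4, Bach2, Il6ra, Foxp1 and Foxo1. Igfbp4, an IGF-binding protein gene of naive CD4+ T cells, averaged 159 ± 44.6 CPM in cluster 7, 302 ± 19.0 CPM in the other CD4+ T cells and 145 ± 23.5 CPM in CD8+ T cells. Within cluster 7 it was at 79.6 CPM in members with a CD8 UMI and at 205 CPM in members without one.

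**Figure D3:**
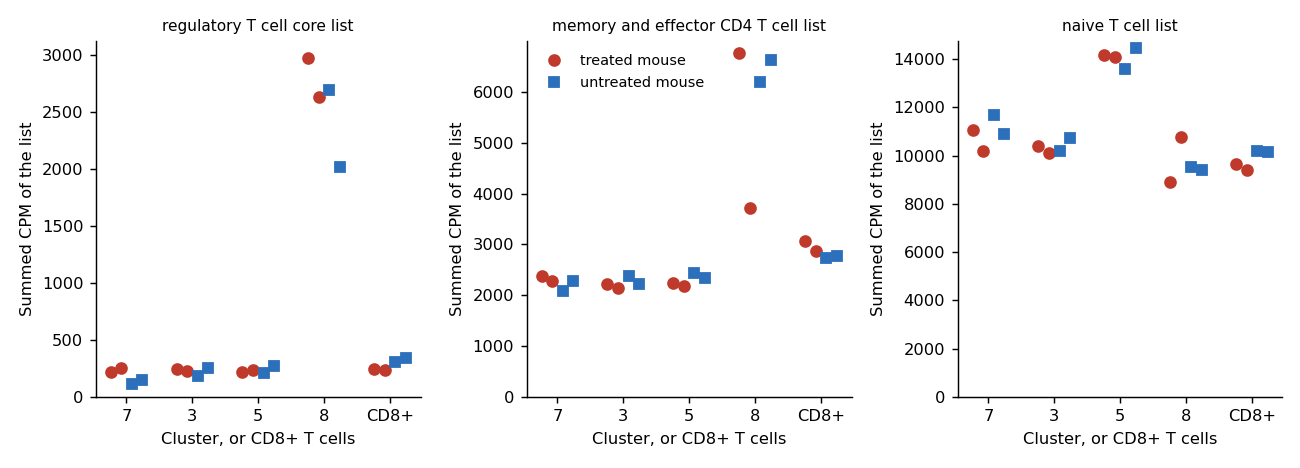
Summed CPM of 3 gene lists (vertical axes) in cluster 7, clusters 3, 5 and 8 and CD8+ T cells, with 1 symbol for each treated (circle) and untreated (square) mouse. Cluster 7 lies beside clusters 3 and 5 for the regulatory and memory lists, between 117 and 251 CPM and between 2074 and 2369 CPM, and cluster 8 lies above.

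Helper subset genes differed in level. The 8 T helper 1 genes summed to 311 ± 82.2 CPM in cluster 7 and 269 CPM in the other CD4+ T cells, most of it from Stat4, a signal transducer of IL-12, at 204 ± 41.6 CPM in cluster 7 and 192 ± 19.7 CPM in the other CD4+ T cells. Ly6c2, described above, is on this list, while Ifng had 0 UMIs and Tbx21, the T helper 1 factor, had 1 in cluster 7. The 9 measured follicular helper genes summed to 796 ± 95.6 CPM in cluster 7 and 897 CPM in the other CD4+ T cells. Of 5 measured T helper 17 genes, 4 had 0 UMIs in cluster 7. Gata3, the T helper 2 factor, averaged 28.8 ± 9.16 CPM in cluster 7 and 54.0 ± 4.61 CPM in the other CD4+ T cells. It was lower in 4 of 4 mice, as were 10.8% of all genes compared. By population, Gata3 averaged 44.1 CPM in cluster 3, 54.4 CPM in cluster 5, 103 CPM in cluster 8 and 21.1 CPM in CD8+ T cells. The invariant NKT and gamma delta T cell list summed to 54.6 ± 30.9 CPM in cluster 7 and 17.4 CPM in the other CD4+ T cells. Of the sum in cluster 7, Plac8, one of the 15 largest folds, made up 47.5 CPM. Its defining genes Zbtb16 and Tcrg-C1 had 0 UMIs in cluster 7, and 5 of its 8 measured genes were at 0. Of 11 measured NK cell genes, 5 were at 0 in cluster 7. Only 1, Nkg7, reached a mean of 10 CPM, through its level in cluster 7, so the others were not compared by fold. The 15 B cell genes summed to between 117 and 262 CPM in cluster 7 and between 161 and 231 CPM in the other CD4+ T cells, so these ranges overlapped. Cd79a was seen in 3.29% of members, against 2.64% of the other CD4+ T cells and 98.9% of B cells. Platelet genes summed to at most 5.47 CPM, red blood cell genes to at most 23.3 CPM and monocyte and neutrophil genes to at most 91.9 CPM in cluster 7. The interferon-stimulated list summed to 1705 ± 232 CPM in cluster 7, 1955 ± 129 CPM in cluster 3, 1963 ± 196 CPM in cluster 5 and 2589 ± 308 CPM in cluster 8. Ifi27l2a, one of its members, averaged 406 ± 109 CPM in cluster 7, 608 CPM in cluster 3 and 473 CPM in cluster 5.

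Over all genes, few others differed by at least 2-fold in the means with the same direction in every mouse. Of 7265 genes, 40 (0.551%) were higher in cluster 7 by this rule and 125 (1.72%) were lower. Of these, 27 of the higher and 120 of the lower genes had fewer than 20 UMIs in the whole cluster, so most rest on very few molecules. Among the 1289 genes with a mean of at least 100 CPM, 3 (0.233%) were higher, namely Gm11290, Cd8b1 and Fam241a, and 0 (0%) were lower. When cells with a UMI of Cd8a, Cd8b1 or the B cell gene Cd79a were left out on both sides, Gm11290 remained as the only gene of 1308 past this level, at 2025 ± 250 CPM in cluster 7 and 70.5 ± 7.43 CPM in the other CD4+ T cells. Against clusters 3 and 5 without such cells, it was again the only gene, of 1300. The 100 CPM minimum and these combined settings were chosen after seeing the data.

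The 15 largest folds among the 40 higher genes were those of Gm11290, Cd8a, Nkg7, Cd8b1, Plac8, Ly6c2, Klrd1, Hgsnat, Ctsw, Dnajc16, Dpy19l1, Zfpl1, Endov, Actn2 and Gm15834. The last 6 had between 9 and 21 UMIs in cluster 7. Hgsnat, a lysosomal acetyltransferase gene, was at 54.1 and 16.2 CPM in cluster 7 of the treated mice, and at 34.96 and 115 CPM in cluster 7 of the untreated mice, and stayed between 12.3 and 18.2 CPM in the other CD4+ T cells. The spread between mice was thus wide, and treated 2 lay within the range of the other CD4+ T cells. Of the 38 UMIs of Hgsnat in cluster 7, 1 cell held 10 and another held 9, so its level rests on few cells. The 15 smallest folds were those of S100a4, S100a6, Ikzf2, Trappc1, Trmo, Spice1, Mthfd1, Sorcs2, Wiz, Cpped1, Zfp518a, Rbm43, Fbxo21, Snx18 and Glce. All 15 had at most 7 UMIs in cluster 7, and Ikzf2 and S100a6 were not lower in cluster 7 than in cluster 3. Of 5 immunoglobulin and T cell receptor segments at 10 CPM or more, 0 were higher and 1 was lower by this rule.

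**Figure D4:**
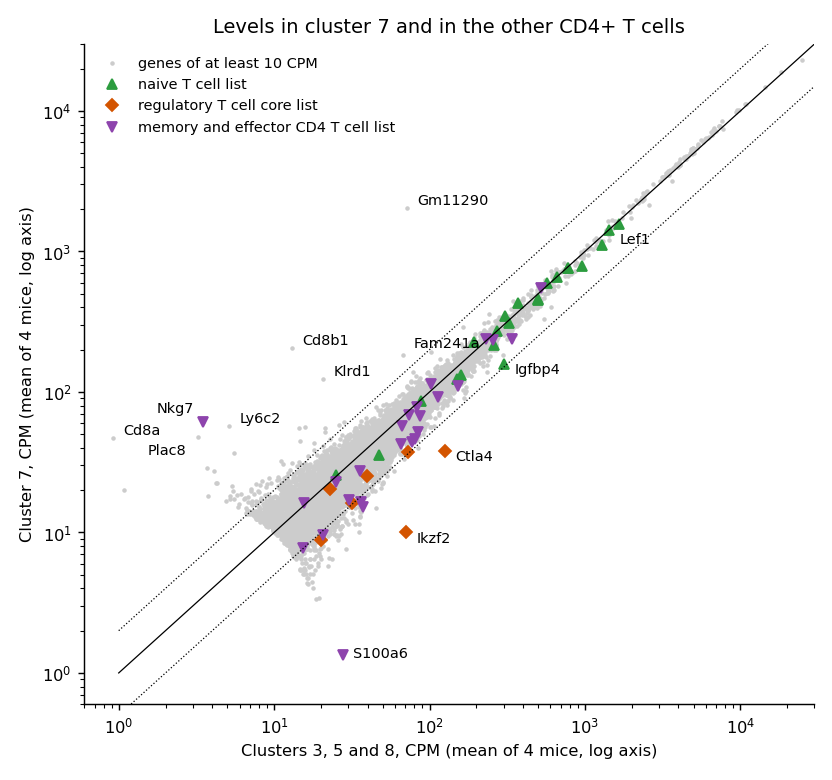
Mean CPM over 4 mice in cluster 7 (vertical log axis) against the other CD4+ T cells (horizontal log axis) for genes with a mean of at least 10 CPM, with naive (triangles), regulatory (diamonds) and memory (inverted triangles) genes marked, a solid line at equal levels and dotted lines at 2-fold. Genes with 0 UMIs in cluster 7 are not drawn. Gm11290 stands far above the line at 2027 CPM, CD8-related genes lie above it at lower levels, and naive genes lie along it.

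The design asks whether NTP changed these cells. The share of cluster 7 among CD4+ T cells was 8.10% and 13.5% in the treated mice (32 of 395 and 53 of 392), against 5.98% and 11.4% in the untreated mice (18 of 301 and 49 of 429). The groups overlapped, and the difference of 2.11 percentage points had p = 0.67 (2-sided exact permutation test). With 2 mice per group the smallest p this test allows is 0.33. The share of T cells with 5 or more Gm11290 UMIs was 7.69% and 9.12% in the treated mice, against 4.69% and 7.67% in the untreated mice (p = 0.33, 2-sided exact permutation test). The share of members with a CD8 UMI averaged 35.8% in the treated mice and 18.8% in the untreated mice, also with an exact permutation p of 0.33, the smallest possible. Neither the cut of 5 UMIs nor the share with a CD8 UMI was adjusted for depth. By median, members were deeper in both treated mice than in both untreated mice.

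No gene passed the test of treatment in cluster 7. edgeR's quasi-likelihood test on summed counts called 0 of 2700 genes (0%) at an adjusted p under 0.05, with a smallest adjusted p of 0.24, and 106 genes had an unadjusted p under 0.05. DESeq2 also called 0 genes, with 8 under that unadjusted level. Groups did not overlap for 381 genes that were higher (14.1%) and 506 that were lower (18.7%) in treated mice. The groups of 2 mice rest on as few as 18 cells, so absence of a call is no evidence of equal levels.

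The genes with the smallest p are given as values. Gm42418, a noncoding RNA that overlaps the ribosomal RNA repeat, was at 16945 and 14001 CPM in cluster 7 of the treated mice, against 25092 and 20087 CPM in the untreated mice. Its log2 fold change was -0.51 ± 0.11 (SE, edgeR adjusted p = 0.24), and its values in the other CD4+ T cells were 17394 and 14890 CPM in the treated mice, against 21540 and 19389 CPM in the untreated mice. It was the gene called when cells with a Cd8a, Cd8b1 or Cd79a UMI were left out (log2 -0.53, edgeR adjusted p = 0.035). Runx1, a transcription factor of T cell development, was at 151 and 146 CPM in the treated mice, against 338 and 322 CPM in the untreated mice (edgeR adjusted p = 0.47). Bcl2, which protects lymphocytes from apoptosis, was at 600 and 518 CPM in the treated mice, against 1026 and 864 CPM in the untreated mice (edgeR adjusted p = 0.996). Ythdf3 and Arap2 completed the 5 with the smallest p among those with a negative log2 value, and Trbc1, Dnajc9, Pomp, Pdap1 and Rnaset2a were the 5 with a positive one, each at an edgeR adjusted p of 0.996. Gm11290 was at 2028 and 2390 CPM in the treated mice, against 1690 and 2001 CPM in the untreated mice, and its log2 fold change was 0.29 ± 0.15 (SE, edgeR adjusted p = 0.996).

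The study had picked the 15 listed target genes of its miRNAs because they differed with treatment in these same single-cell data. Their direction below was thus partly fixed by that choice and is no separate test. Of these 15 genes, 13 were tested and 0 were called in either direction, with a median log2 value of -0.19. Without overlap between groups, 4 of the 13 were lower in the treated mice and 0 were higher, beside 18.7% lower and 14.1% higher over all genes tested. The list summed to 3991.5 and 3669 CPM in cluster 7 of the treated mice, against 4382 and 4531 CPM in the untreated mice, and it was lower in both treated mice in clusters 3 and 5 and in CD8+ T cells too, with overlap in cluster 8. Mbnl1, a splicing regulator, averaged 850 CPM in the treated mice and 939 CPM in the untreated mice, and the groups overlapped. Tnik, a kinase of Wnt signalling, averaged 140 CPM in the treated mice and 228 CPM in the untreated mice, and its groups overlapped as well. Phf20l1, Macf1, Celf1 and Ap2b1 did not overlap, and Phf20l1 was at 253 CPM in the treated mice and 350 CPM in the untreated mice, with an edgeR adjusted p of 0.996. Mif averaged 228 CPM in the treated mice and 285 CPM in the untreated mice, and Sptssa 60.1 CPM in the treated mice and 67.8 CPM in the untreated mice. Among the 20 tested genes of the naive list, the 12 of the T cell receptor list and the 12 of the immediate early list, 0 were called.

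One gene differed in its treatment effect between cluster 7 and the other CD4+ T cells, out of 7510 tested (0.0133%). Trbc1, a constant region gene of the T cell receptor beta chain, was at 1038 and 713 CPM in cluster 7 of the treated mice, against 571 and 519 CPM in the untreated mice. In the other CD4+ T cells it was at 618 and 641 CPM in the treated mice, against 759 and 660 CPM in the untreated mice, so the direction was opposite. The log2 difference of the effects was 0.86 ± 0.18 (SE, edgeR adjusted p = 0.020 in a model with the mouse as a block). DESeq2 called 0 genes, and the call of Trbc1 was lost without the mouse block (edgeR adjusted p = 0.45), against each of clusters 3, 5 and 8 alone (adjusted p = 0.057, 0.29 and 0.997), without treated 1 (log2 0.58, edgeR adjusted p = 1), without untreated 1 (adjusted p = 0.47) and without untreated 2 (adjusted p = 0.22). Its near-identical copy Trbc2 averaged 1236 CPM in the treated mice and 1386 CPM in the untreated mice in cluster 7. Whether reads were shared between the copies was not tested.

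**Figure D5:**
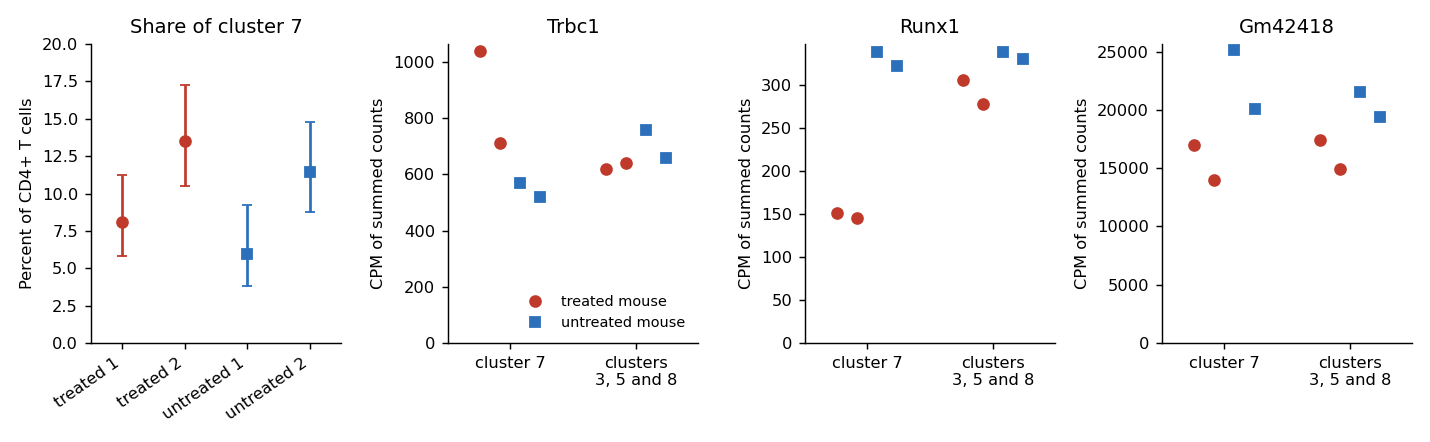
From left, the share of cluster 7 among CD4+ T cells in each mouse with Wilson 95% intervals, and the CPM of Trbc1, Runx1 and Gm42418 in cluster 7 and in the other CD4+ T cells, with 1 symbol for each treated (circle) and untreated (square) mouse. The shares overlap between groups, and Trbc1 lies higher in the treated mice in cluster 7 only, at 1038 and 713 CPM.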

How the data were processed

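Peripheral blood mononuclear cells of 2 treated and 2 untreated mice were profiled with 10x 3' chemistry. The authors deposited raw UMI counts per gene and cell (whole numbers, 15093 genes) and a table with clusters, cell types and the percent of mitochondrial counts. Cell Ranger 7.1.0, Seurat 4.3.0 and the mm10 build are named in the submitters' processing notes. The study's methods list SoupX against free RNA and DoubletFinder against doublets. It is unknown here if the SoupX correction is part of the deposited counts. No doublet caller was run again. Recomputed UMIs and genes per cell equalled the deposited ones, and 0 columns of values were left unused.

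Raw counts were summed per mouse and population and scaled to CPM. Cluster 7 was compared with clusters 3, 5 and 8 by level, among genes with a mean of at least 10 CPM, as a ratio of the means of at least 2-fold with the same direction in every mouse. Treatment was tested with edgeR 4.0.16 (R 4.3.3; TMM, low-count filter, robust quasi-likelihood fit, Benjamini-Hochberg adjustment at 0.05), and the difference in treatment effect as an interaction with the mouse as a block. Both were tested on simulated data. Named genes were list members, the 15 largest and 15 smallest folds, up to 10 genes called with treatment or interaction and not overlapping between groups (where fewer than 3 were called, the 5 smallest p per direction), and Mbnl1, Tnik, Phf20l1, Mif and Sptssa. Receptor segments were counted and not named, and some items are not reported here. Fam241a, Hist1h4i, Prss16, Zfp184 and Trbc2 were named after their values were seen. Replicate numbers follow accession order and pair no samples. Members and lists were chosen with earlier results of these data known. Alternatives were DESeq2 1.42.0, RLE scaling, no filter, equal cells per mouse (18), other comparison cells, thinning to 2000 UMIs, the mean of the CPM of single cells, cells without Cd8a, Cd8b1 or Cd79a UMIs, and leaving out each mouse. Wilson intervals at 95% (scipy 1.17.1) and the floor of 3 counts cover counting error only. Each mouse is 1 library, so p-values measure the spread between libraries.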

Additional observations from a re-analysis of the deposited data

Results flagged for a closer look

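Trbc1 was noted because its treatment effect differed between cluster 7 and the other CD4+ T cells by a test of the difference itself. It averaged 876 CPM in the treated mice and 545 CPM in the untreated mice in cluster 7, against 629 CPM in the treated mice and 710 CPM in the untreated mice in the other CD4+ T cells, a log2 difference of 0.86 (edgeR adjusted p = 0.020). In cluster 7 both treated mice lay above both untreated mice. The call was also made by edgeR under RLE scaling (adjusted p = 0.034), with no filter (adjusted p = 0.044) and without treated 2 (adjusted p = 0.00086). It was lost without the mouse block, against clusters 3, 5 or 8 alone, without treated 1, untreated 1 or untreated 2, and with DESeq2. The part that its copy Trbc2 plays in this value was not tested.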

How the results depend on the processing

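The counts of genes apart by at least 2-fold between cluster 7 and the other CD4+ T cells depended on the comparison cells and the filter, whereas Gm11290 was higher under each alternative run. Higher and lower genes numbered 85 and 61 against cluster 3 alone, 42 and 347 against cluster 5 alone and 141 and 468 against cluster 8 alone. They numbered 65 and 929 with no filter, 74 and 309 after thinning, and 45 and 199 without cells with a Cd8a, Cd8b1 or Cd79a UMI. At a mean of 100 CPM they were 3 and 0, without those cells 1 and 0, against clusters 3 and 5 3 and 1, and with both changes 1 and 0. Leaving out 1 mouse gave 67 to 95 higher and 168 to 278 lower genes. The log2 difference of Ikzf2 became 1.52 against cluster 3 and 0.51 against clusters 3 and 5, and that of S100a6 0.55 and 0.063. The difference in the share of cluster 7 ranged between -0.61 and 4.83 percentage points with 1 mouse left out, being -0.61 without untreated 1 and -0.60 without treated 2.

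Treatment called 1 gene with no filter and 1 without cells with a Cd8a, Cd8b1 or Cd79a UMI, Gm42418 both times, and 0 to 4 with 1 mouse left out. Without treated 1 there were 4, and without untreated 2 there were 3, Cd8b1 among them, with Gm42418 called both times. Over the mice left out, the log2 fold change ran between -0.22 and 0.076 for Mbnl1, -1.15 and 0.19 for Tnik, -0.70 and 0.080 for Mif, and -0.51 and 0.18 for Sptssa. The interaction called 0 genes without the mouse block (a model with no replicate block), 0 with DESeq2, 0 against cluster 3 alone and 0 against cluster 5 alone. Against cluster 8 alone it called 1 gene, Gm11290 (log2 2.07, edgeR adjusted p = 0.0013), whose log2 difference against all 3 clusters was 0.50 (edgeR adjusted p = 1.0). It called 0 to 1 with 1 mouse left out. The log2 difference of Sptssa was 0.15 against cluster 5 alone. Against cluster 8 alone it was 0.69 for Sptssa, -0.32 for Mbnl1, 0.53 for Phf20l1 and 0.18 for Mif. Over the mice left out it ran between -0.069 and 0.30 for Mbnl1, -0.23 and 0.090 for Phf20l1, -0.58 and 0.064 for Mif, -0.44 and 0.17 for Sptssa, and -0.86 and 0.64 for Tnik. The causes were not tested. Treated and untreated mice were different animals and no label pairs them, so treatment was tested without pairing. The numbers used here only name mice in accession order. Only the interaction was paired, through the mouse block. The 18 cells of untreated 1 limit what treatment effects could be seen.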

Other observations

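Cytokine receptor and trafficking genes were also near the level of the other CD4+ T cells. The cytokine receptor list summed to between 2175 and 2529 CPM in cluster 7 and between 2337 and 2404 CPM in the other CD4+ T cells. The chemokine and trafficking receptor list summed to between 2826 and 3121 CPM in cluster 7 and between 2831 and 3352 CPM in the other CD4+ T cells. Cell cycle genes summed to 1063 CPM in cluster 7 and 1096 CPM in the other CD4+ T cells on average, with ranges that overlapped. The NF-kB and TNF receptor list summed to between 1713 and 2025 CPM in cluster 7, which overlapped cluster 3 (1858 to 2155 CPM) and cluster 5 (1904 to 2226 CPM) and lay below cluster 8 (2642 to 3763 CPM).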
